A study of Mus musculus with 10 samples.

Results

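The thrombospondins are secreted matrix glycoproteins, and the rule lists Thbs1, Thbs2, Thbs3 and Thbs4 together with the receptors Cd47 and Cd36. Members were chosen by gene symbol with the FOXP2 comparison already known, since Thbs1 was picked as its strongest faller. Of 6 symbols, 3 matched a row of their own (Thbs1, Thbs2 and Cd47) and 3 (Thbs3, Thbs4 and Cd36) were not analysed here. These 3 rows belong to 18430 in the table, of which 12842 named a gene and passed the filter on low values (at least 1 RPKM in at least 2 libraries), as all 3 did.

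The cells were NIH3T3, an established mouse embryonic fibroblast line, and RNA-seq values were given as RPKM, read density scaled by transcript length and by the number of mapped reads. FOXP2-CPED1 and FOXP2 were each stably overexpressed, in 4 clones per construct, and the controls were 1 parental culture and 1 culture stably carrying the vector. FOXP2 is a forkhead transcription factor, and FOXP2-CPED1 is a rearranged form of it named in the study's title. The promoter driving the constructs is not given in the sources used here. Each clone descends from separately isolated cells, whereas neither control is labelled as a clone, so an effect of cloning and an effect of the construct cannot be told apart in any comparison with the controls.

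Thbs1 and Thbs2 form trimers whose type 1 repeats bind CD36, and both are known as inhibitors of blood vessel growth. Thbs1 also activates latent TGF-beta, while Thbs3, Thbs4 and Comp form pentamers that lack type 1 repeats. CD47 is a membrane protein that binds the carboxy-terminal end of thrombospondin 1 and, on a neighbouring cell, the inhibitory receptor SIRPA. In fibroblasts, THBS1 is known as a gene induced by serum.

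The 10 libraries summed to 794682 to 944602 RPKM, and 12696 to 13172 rows reached 1 RPKM in each. Absolute depth is unknown, because no counts were used. Both mitochondrial rows were listed at 0 in 3 libraries (FOXP2-CPED1 clone 3 and FOXP2 clones 2 and 4) and together gave 33213 to 41130 RPKM in each of the remaining 7. No pair of libraries held identical values. The mouse Foxp2 row lay between 0.0674 and 1.02 RPKM in all libraries. Whether reads from the introduced sequence could map to that row is not given, so it does not check the labels. All 10 fibroblast markers looked for were present, summing to 7265 to 10553 RPKM in FOXP2-CPED1 clones, 7068 to 9742 RPKM in FOXP2 clones and 10149 to 10387 RPKM in controls. Endothelial markers, with rows for 2 of 6, summed to 2.64 to 5.58, 1.86 to 17.1 and 3.80 to 5.49 RPKM in the same order of groups. The highest of these sums came from Vwf at 17.1 RPKM in FOXP2 clone 4. Platelet markers, with rows for 4 of 5, summed to 8.21 to 10.1 RPKM in FOXP2-CPED1 clones, 4.43 to 10.9 RPKM in FOXP2 clones, where Pf4 was listed at 0 throughout, and 6.87 to 8.21 RPKM in controls. Adipocyte markers, with rows for 3 of 6, summed to 31.9 to 88.8, 15.7 to 76.4 and 71.3 to 77.5 RPKM in that order, and the epithelial marker Cdh1, 1 of 5 with a row, stayed between 0.584 and 2.37 RPKM in all libraries. None of 6 macrophage markers was matched to a row of a single gene.

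Thbs1 was far below its control level in all 8 clones. It measured 29.8, 28.2, 28.2 and 12.1 RPKM in FOXP2-CPED1 clones 1 to 4 and 8.20, 17.2, 14.3 and 3.63 RPKM in FOXP2 clones 1 to 4, against 160 RPKM in parental cells and 180 RPKM in vector cells. The clones did not overlap the controls, and FOXP2-CPED1 clone 4 was the only FOXP2-CPED1 clone inside the FOXP2 range. The means were 24.6 ± 8.35 RPKM with FOXP2-CPED1, 10.8 ± 6.10 RPKM with FOXP2 and 170 ± 13.6 RPKM in controls (SD, n = 4, 4 and 2), so the control mean was 6.92 times the FOXP2-CPED1 mean and 15.7 times the FOXP2 mean. Fewer cells that transcribe a gene and less of its RNA in each cell cannot be told apart in bulk RNA.

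As a share of the control mean, Thbs1 stood at 17.5%, 16.6%, 16.6% and 7.11% in FOXP2-CPED1 clones 1 to 4 and at 4.82%, 10.1%, 8.40% and 2.13% in FOXP2 clones 1 to 4. On the log2(RPKM + 1) scale used for all log2 differences, Thbs1 differed from the controls by -2.82 ± 0.52 in FOXP2-CPED1 clones and by -4.03 ± 0.52 in FOXP2 clones (SE from limma, a linear model fitted across all rows). This difference chose the gene, so it is a description and carries no p-value. The rule calls Thbs1 the strongest faller and gives no threshold. With FOXP2, 9 of all 12842 rows had a lower log2 difference than Thbs1. That rank rests on the values the rule used, so nothing is read from it. Both comparisons share the 2 control libraries.

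By level among the 12842 tested rows, Thbs1 stood at percentiles 48.1 to 72.1 in FOXP2-CPED1 clones and 21.8 to 56.8 in FOXP2 clones, against 94.1 to 95.1 in controls. In the same ranking, the other 2 member rows stayed between percentiles 82.3 and 96.7 in every library.

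**Figure D1:**
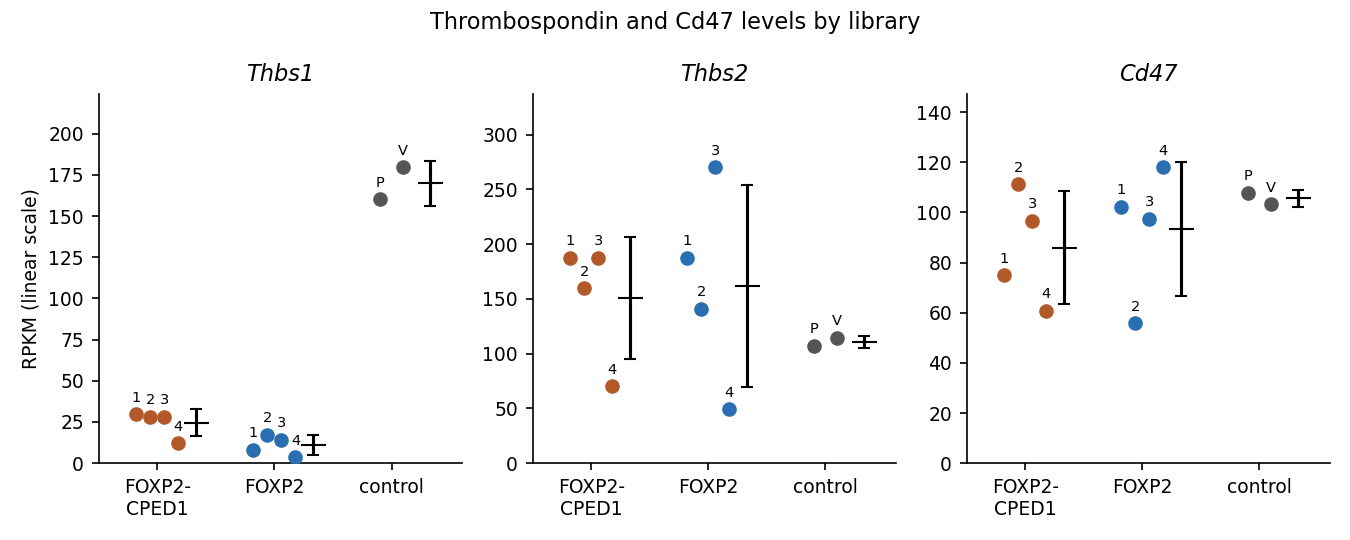
RPKM on a linear axis for the 3 member rows, with a point for each library (numbers are clones, P parental and V vector) and a bar for the group mean and SD. Thbs1 lies between 3.63 and 29.8 RPKM in the clones and between 160 and 180 RPKM in the controls, while the other rows overlap between groups.

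Thbs2, the closest relative of Thbs1, overlapped the controls with both constructs. It measured 187, 160, 188 and 70.1 RPKM in FOXP2-CPED1 clones 1 to 4 and 188, 141, 270 and 49.2 RPKM in FOXP2 clones 1 to 4, against 107 RPKM in parental cells and 114 RPKM in vector cells. Clone 4 of each construct lay below both controls and the other 3 clones above them. The means were 151 ± 55.6 RPKM with FOXP2-CPED1, 162 ± 92.2 RPKM with FOXP2 and 111 ± 5.16 RPKM in controls (SD, n = 4, 4 and 2). The log2 differences from control, 0.35 ± 0.60 with FOXP2-CPED1 and 0.31 ± 0.60 with FOXP2, were smaller than their SE with all libraries. With FOXP2-CPED1 the difference was 0.21 ± 0.65 without clone 1, 0.21 ± 0.65 without clone 3 and 0.68 ± 0.56 without clone 4. With FOXP2 it was 0.16 ± 0.65 without clone 1, -0.02 ± 0.57 without clone 3 and 0.79 ± 0.42 without clone 4. Without the 3 libraries with mitochondrial rows at 0 it was 0.21 ± 0.41 with FOXP2-CPED1 and 1.02 ± 0.45 with FOXP2, and with library quality weights 0.61 ± 0.34 and 0.63 ± 0.30.

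Cd47, the receptor, stood at 74.9, 111, 96.8 and 60.9 RPKM in FOXP2-CPED1 clones and at 102, 55.8, 97.5 and 118 RPKM in FOXP2 clones, against 108 RPKM in parental cells and 103 RPKM in vector cells. Clones of both constructs lay on either side of the controls. The means were 86.0 ± 22.4 RPKM with FOXP2-CPED1, 93.4 ± 26.6 RPKM with FOXP2 and 106 ± 3.34 RPKM in controls (SD, n = 4, 4 and 2). The log2 differences from control were -0.33 ± 0.30 with FOXP2-CPED1 and -0.23 ± 0.30 with FOXP2. They were -0.18 ± 0.30 with FOXP2-CPED1 without its clone 4, and 0.00 ± 0.23 and -0.36 ± 0.31 with FOXP2 without its clones 2 and 4.

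FOXP2-CPED1 clone 4 had the lowest value of its construct in all 3 member rows, Thbs1 included. This was not particular to the members. The same clone was lowest of its construct in every fibroblast marker looked for except Vim, where it was highest. Dcn, for example, stood at 34.8 RPKM in clone 4 and at 267, 315 and 214 RPKM in FOXP2-CPED1 clones 1 to 3. Among FOXP2 clones, clone 4 was lowest in Thbs1 and Thbs2, and clone 2 in Cd47, where clone 4 was highest.

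Of the 3 member rows, 1 was past the threshold with FOXP2 against control, where 0.436% of all tested rows were, and 0 with FOXP2-CPED1 against control, where 0.35% were. The groups did not overlap in 1 of 3 rows in either comparison, against 25.6% of all rows for FOXP2-CPED1 and 19.5% for FOXP2. That row was Thbs1, which the rule used, and nothing is read from these counts. Without the parental library 0 rows passed with FOXP2-CPED1 and 2 with FOXP2, and without the vector library 2 and 3 passed. Leaving out FOXP2-CPED1 clone 1, 2 or 3 gave 13, 14 and 17 rows for FOXP2-CPED1 against control, where 45 passed with all libraries. For FOXP2 against control, where 56 passed, 33 and 29 passed without FOXP2-CPED1 clones 1 and 3, which share the estimate of the spread, and 22 and 25 without FOXP2 clones 1 and 4.

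**Figure D2:**
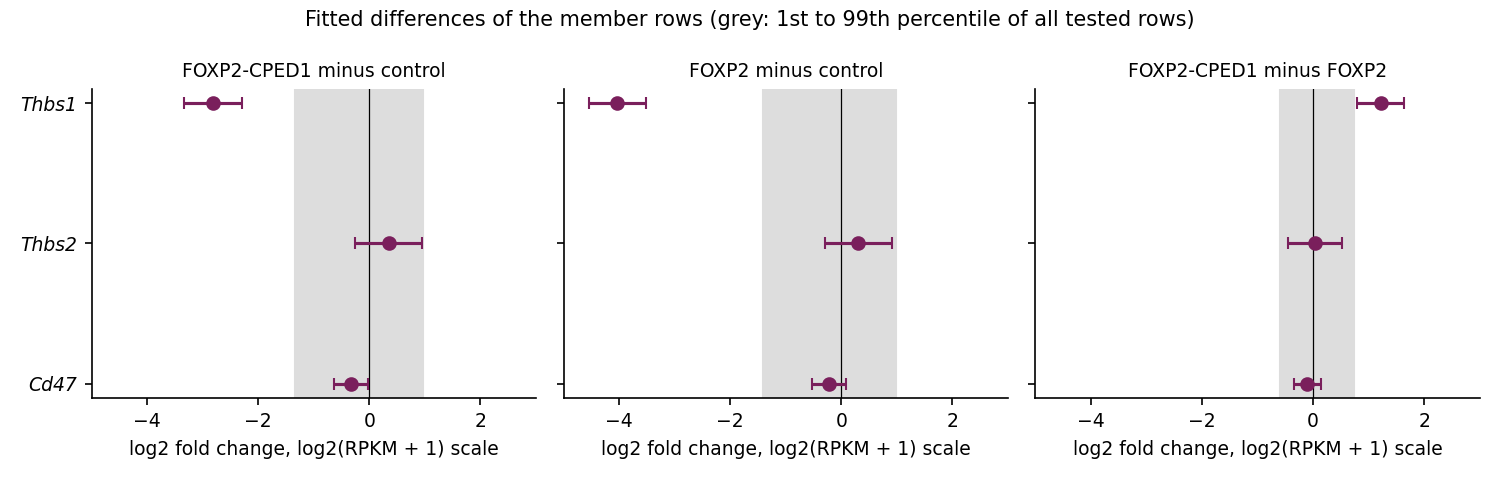
Log2 differences of the 3 member rows on the log2(RPKM + 1) scale, with SE from limma, for FOXP2-CPED1 minus control, FOXP2 minus control and FOXP2-CPED1 minus FOXP2; the grey band spans percentiles 1 to 99 of all tested rows. Thbs1 stands at -2.82 and -4.03 against the controls and at 1.21 between the constructs, and the other rows lie inside the band in all panels.

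Between the constructs, the FOXP2 values of Thbs1 had been used to choose it as the strongest faller, which favours a higher FOXP2-CPED1 mean, so this difference too is a description for Thbs1 and was tested only for Thbs2 and Cd47. Thbs1 was 2.27 times as high on average in FOXP2-CPED1 clones, 24.6 ± 8.35 RPKM against 10.8 ± 6.10 RPKM in FOXP2 clones (SD, n = 4 each), and 3 of 4 FOXP2-CPED1 clones exceeded every FOXP2 clone. The log2 difference was 1.21 ± 0.42 (SE from limma). No row among all those tested passed the adjusted threshold in this comparison (0%). An unadjusted limma p under 0.05 was found in 278 of 12842 rows, a smaller share than 0.05 gives with no true difference. The groups did not overlap in 0 of 3 member rows and in 1.38% of all rows.

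Thbs2 and Cd47 gave no difference beyond the spread of the clones in the exact two-sided permutation test over the 8 clones, in which 0.0286 is the smallest p that 4 against 4 allows. For Thbs2 the log2 difference was 0.04 ± 0.49, with a 95% interval from -1.05 to 1.13 and an exact permutation p of 1.0. Cd47 differed by -0.10 ± 0.25, with a 95% interval from -0.66 to 0.45 and an exact permutation p of 0.771. The interval still allows a difference of more than 1 log2 unit for Thbs2.

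Thbs1 was also set against Thbs2 within each library, where depth and scaling are common to both rows. Thbs1 was 15.9%, 17.6%, 15.0% and 17.3% of Thbs2 in FOXP2-CPED1 clones 1 to 4 and 4.37%, 12.2%, 5.28% and 7.37% of Thbs2 in FOXP2 clones 1 to 4, against 150% in parental cells and 157% in vector cells. The order of the pair by RPKM was therefore Thbs2 above Thbs1 in all 8 clones and Thbs1 above Thbs2 in both controls. The mean ratio was 16.5% ± 1.22 with FOXP2-CPED1, 7.31% ± 3.51 with FOXP2 and 153% ± 5.16 in controls (SD, n = 4, 4 and 2), and the ranges of the constructs did not overlap. Of 12558 rows set against Thbs2 in the same way, 0.104% had construct ranges that did not overlap. The spread of Thbs2 itself, 49.2 to 270 RPKM over the clones, enters each of these ratios. Nothing is read from that share. The ratio of Thbs1 to Thbs2 was chosen after the values were seen, and the choice of Thbs1 used its FOXP2 values, so it has no test.

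**Figure D3:**
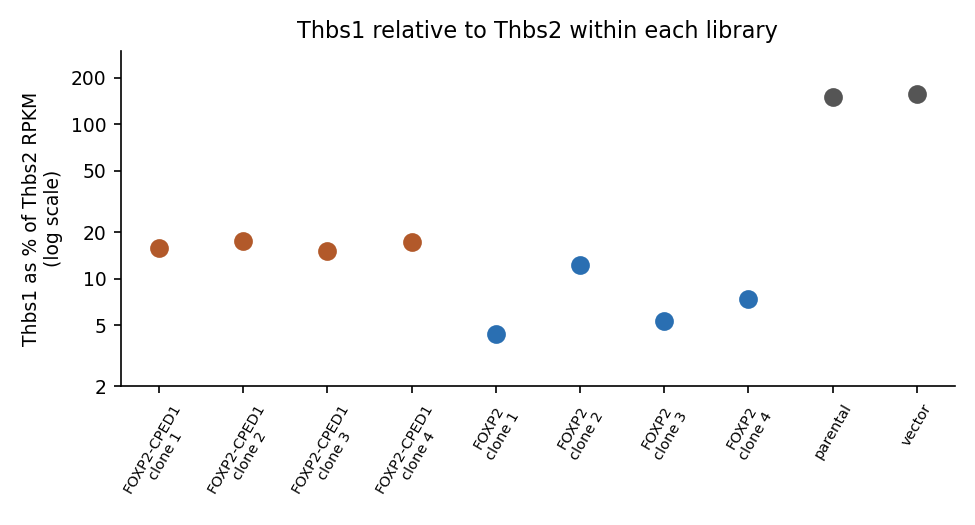
Thbs1 as a percentage of Thbs2 by RPKM, on a log axis, with a point for each of 10 libraries. The FOXP2-CPED1 clones lie between 15.0% and 17.6%, the FOXP2 clones between 4.37% and 12.2%, and the controls at 150% and 157%.

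The promoter reference used held no entry for Thbs1, so its promoter was not searched. Promoter sequences are shown for the other member rows, because a forkhead factor was overexpressed and its core motif can be read against them. They are the 250 bases before the start of each gene in RefSeq on GRCm38.p6, a build other than the mm9 listed in the submitters' processing notes. Capitals mark TGTTT or its reverse complement AAACA, the core letters of forkhead motifs. Thbs2 (chr17:14694263-14694512, minus strand) held 2 matches and the first of the Cd47 starts (chr16:49855404-49855653, plus strand) held 0. On either strand, 46.4% of 32851 promoter windows of this length held at least 1 match, and a match is a description of letters, not a binding site.
Thbs2: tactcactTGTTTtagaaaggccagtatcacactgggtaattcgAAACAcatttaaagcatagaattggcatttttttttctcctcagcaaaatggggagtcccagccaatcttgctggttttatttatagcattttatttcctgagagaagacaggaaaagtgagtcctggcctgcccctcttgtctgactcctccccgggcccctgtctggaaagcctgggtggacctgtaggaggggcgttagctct
Cd47: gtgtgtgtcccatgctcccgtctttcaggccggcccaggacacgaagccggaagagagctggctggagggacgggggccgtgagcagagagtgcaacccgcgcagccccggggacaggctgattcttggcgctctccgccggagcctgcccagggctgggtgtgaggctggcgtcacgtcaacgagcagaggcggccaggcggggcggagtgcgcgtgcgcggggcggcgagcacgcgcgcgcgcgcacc

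The longer forkhead motif TGTTTAC, held by 3.17% of windows, and the EGR motif GCGGGGGCG, held by 2.57%, were not found in these 2 windows, nor was a CArG box, the motif of SRF, held by 1.47%. TATAAA, held by 12.37%, occurred once, as its reverse complement TTTATA in the Thbs2 sequence as printed, on the strand opposite the gene. GC content was 46.8% for Thbs2 and 73.2% for Cd47.

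Genes around the thrombospondins were followed through 5 lists. Among 18 of 20 receptors and partners that were tested, 0 passed the threshold with either construct, and their median log2 difference was -0.13 with FOXP2-CPED1 and -0.08 with FOXP2, against medians of 0.00 and 0.02 over all tested rows. Sdc4, a heparan sulphate proteoglycan, averaged 42.7 ± 5.10 RPKM with FOXP2-CPED1, 38.3 ± 17.9 RPKM with FOXP2 and 80.4 ± 7.71 RPKM in controls (adjusted p = 0.567 and 0.305, limma). Scarb1, a scavenger receptor related to CD36, averaged 34.4 ± 6.62, 41.3 ± 11.2 and 24.0 ± 1.13 RPKM in the same order (adjusted p = 0.729 and 0.375, limma).

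Of 40 proteins with type 1 repeats or of the thrombospondin family, 20 were tested and 0 passed with either construct, with medians of -0.28 for FOXP2-CPED1 and -0.42 for FOXP2, and 13 and 14 of the 20 were below 0. Without Comp the medians were -0.26 and -0.36. Ctgf, a matricellular growth factor, averaged 29.5 ± 28.6 RPKM with FOXP2-CPED1, 40.7 ± 24.2 RPKM with FOXP2 and 362 ± 16.9 RPKM in controls (adjusted p = 0.107 and 0.168, limma). Cyr61, its relative, averaged 120 ± 72.5 RPKM with FOXP2-CPED1, 169 ± 55.8 RPKM with FOXP2 and 737 ± 8.93 RPKM in controls (adjusted p = 0.0506 and 0.121, limma). Without FOXP2-CPED1 clone 4 the adjusted p with FOXP2-CPED1 was 0.0365 for Ctgf and 0.0141 for Cyr61, and 0.0443 for Cyr61 with FOXP2, and without FOXP2 clone 3 it was 0.0489 for Ctgf and 0.0466 for Cyr61 with FOXP2-CPED1. After quantile normalization it was 0.0378 for Cyr61 with FOXP2-CPED1. Most of the 20 alternatives left both genes short of the threshold. With FOXP2-CPED1 this held in 17 for Ctgf and 16 for Cyr61, and with FOXP2 in 19 and 18. Comp, the remaining thrombospondin, named after its values were seen, passed the filter only through the controls, at 0.226 ± 0.115 RPKM with FOXP2-CPED1, 0.311 ± 0.208 RPKM with FOXP2 and 1.19 ± 0.197 RPKM in controls (SD, n = 4, 4 and 2).

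In the list of Cd47 and Sirpa signalling, 9 of 15 genes were tested and 0 passed, with medians of 0.08 and 0.11. Ptpn6 passed the filter only through the controls, and without it the medians were 0.08 and 0.16. Ptpn11, a phosphatase recruited by SIRPA, averaged 54.9 ± 4.79 RPKM with FOXP2-CPED1, 58.3 ± 3.6 RPKM with FOXP2 and 49.1 ± 2.06 RPKM in controls. Gnai3, an inhibitory G protein subunit, averaged 57.3 ± 4.21, 60.1 ± 2.18 and 51.8 ± 2.36 RPKM in the same order. Of 16 genes of latent TGF-beta and its activators, 11 were tested and 0 passed, with medians of -0.26 and -0.22. Tgfb2 reached 1 RPKM only in vector cells (1.27) and FOXP2 clone 1 (1.39), so it needed a control to pass the filter. Without Tgfb2 the medians were -0.23 and -0.21. Tgfb1 averaged 27.8 ± 5.71 RPKM with FOXP2-CPED1, 24.9 ± 2.34 RPKM with FOXP2 and 33.9 ± 1.82 RPKM in controls, and Ltbp1, which holds latent TGF-beta in the matrix, averaged 5.01 ± 3.04, 8.07 ± 3.52 and 10.9 ± 2.18 RPKM.

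Among reported regulators of Thbs1, 9 of 10 were tested, and 2 fell with FOXP2-CPED1 and 1 with FOXP2, with medians of -0.74 and -0.40. Over all tested rows, 0.327% were past the threshold and lower with FOXP2-CPED1 and 0.397% with FOXP2. The lists were written with results of these data for some of their genes known, so nothing is read from these counts. Srf, the serum response factor, fell with both constructs, to 12.3 ± 2.05 RPKM with FOXP2-CPED1 and 13.0 ± 2.83 RPKM with FOXP2, against 53.4 ± 4.32 RPKM in controls (log2 differences -2.04 ± 0.20 and -1.98 ± 0.20, adjusted p = 0.00594 and 0.00289, limma). Egr1, a zinc finger factor induced by serum, fell to 29.7 ± 9.65 RPKM with FOXP2-CPED1 and stood at 57.7 ± 20.5 RPKM with FOXP2, against 177 ± 3.74 RPKM in controls (log2 differences -2.59 ± 0.38 and -1.69 ± 0.38, adjusted p = 0.0247 and 0.130, limma). Without the parental library the adjusted p for Srf was 0.115 with FOXP2-CPED1 and 0.0796 with FOXP2, and without the vector library 0.0928 and 0.0660. For Egr1 with FOXP2-CPED1 it was 0.286 and 0.352 without those libraries, and 0.0809, 0.0524 and 0.0638 without FOXP2-CPED1 clones 1, 2 and 3. Between the constructs, 0 genes of the 5 lists passed.

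**Figure D4:**
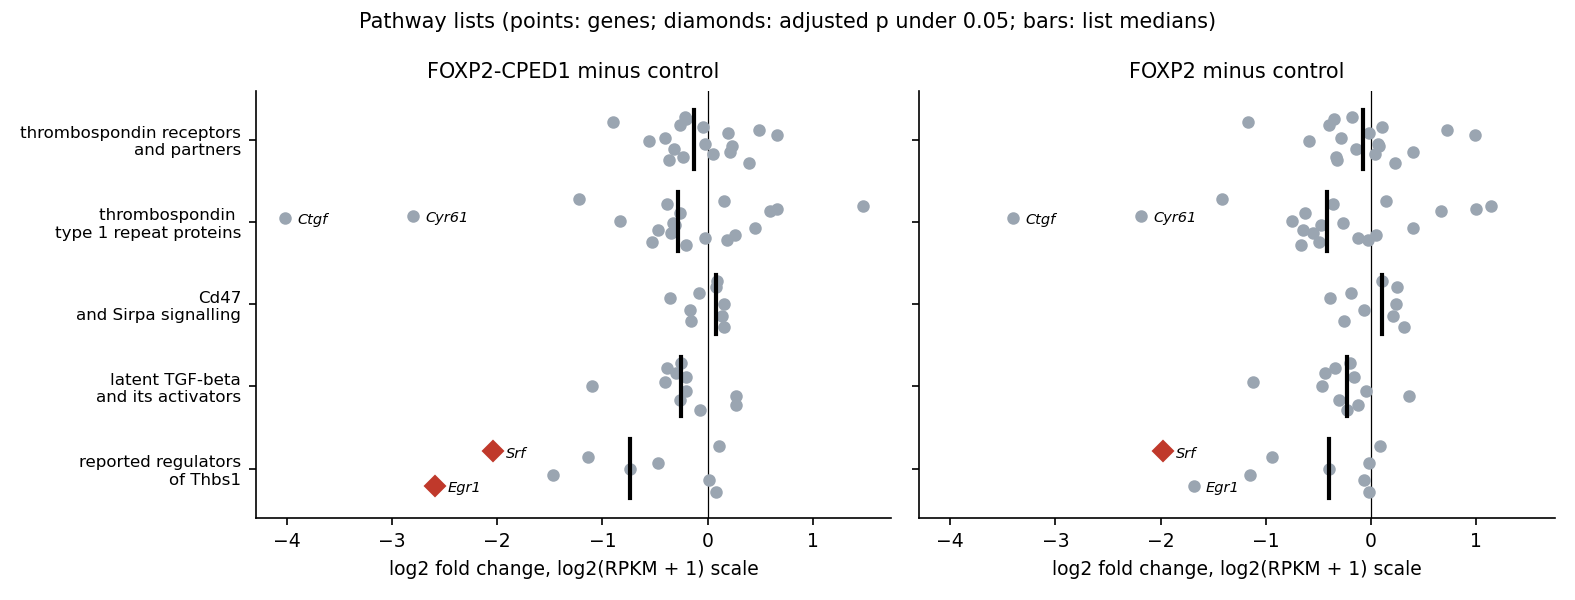
Log2 differences on the log2(RPKM + 1) scale for the tested genes of 5 lists, FOXP2-CPED1 minus control on the left and FOXP2 minus control on the right, with points for genes, diamonds for genes past an adjusted p of 0.05 and bars for list medians. Srf passes with both constructs and Egr1 with FOXP2-CPED1, while Ctgf and Cyr61 lie far to the left without passing.

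By Pearson r of log2(RPKM + 1) over the 8 clones, both constructs pooled, 10 of 8575 rows averaging at least 5 RPKM had r of at least 0.9 with Thbs1, and the median r was -0.01. Among the highest were Ivd (isovaleryl-CoA dehydrogenase) at 0.96, Mthfsl at 0.95, Anapc13 at 0.93 and Clk3 at 0.93. The 3 lowest were Ccdc6 at -0.96, Klf6 at -0.96 and Cyld at -0.95. None was chosen for its difference from control, and Ivd averaged 29 ± 1.58 RPKM with FOXP2-CPED1, 24.2 ± 3.75 RPKM with FOXP2 and 28.3 ± 2.36 RPKM in controls (SD, n = 4, 4 and 2). Klf6, a zinc finger factor, averaged 41.5 ± 7.57 RPKM with FOXP2-CPED1, 55.2 ± 11.1 RPKM with FOXP2 and 75.4 ± 2.89 RPKM in controls. Without FOXP2 clone 4 and FOXP2-CPED1 clone 1, the clones farthest from the median of Thbs1, r was 0.96 for Ivd and -0.93 for Klf6. Over the same 6 clones r was lower for Mthfsl (0.88), Anapc13 (0.79) and Clk3 (0.80). For Ccdc6 and Cyld it was -0.91 and -0.89. The 8 points share their libraries and scaling, and the values of r are a description with no p.

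**Figure D5:**
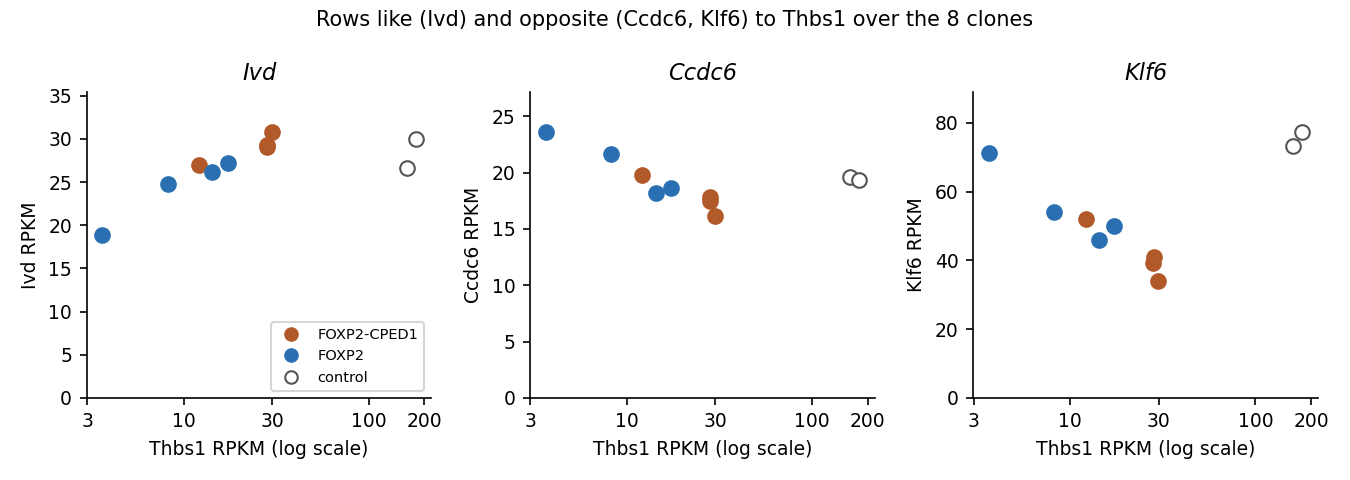
RPKM of Ivd, Ccdc6 and Klf6 (linear axis) against RPKM of Thbs1 (log axis), with a point for each library and the controls as open circles, which were not used for r. Over the 8 clones Ivd climbs with Thbs1 (r = 0.96) and Ccdc6 and Klf6 decline with it (r = -0.96 each).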

How the data were processed

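RNA was sequenced from 10 NIH3T3 libraries, and the authors deposited 1 table of RPKM values, with HISAT2, StringTie and mm9 named in the submitters' processing notes. Rows are genes, some joining several genes (987 of 18430), and a joined row cannot be assigned to 1 gene. Rows naming no gene (3581, 3.37% to 4.54% of summed RPKM) were left out of the tests. RPKM values are not counts, so log2(RPKM + 1) was tested with limma 3.58.1 in R 4.3.3, with a trend, all 3 groups in 1 fit, and Benjamini-Hochberg adjustment over the 12842 named rows left by a filter of 1 RPKM in any 2 libraries. The fit was tested on simulated data. Thbs2 and Cd47 were also compared between constructs with exact permutation tests over clones. The members and lists were chosen with earlier results of these data known. Named genes were the members, list genes past 0.05 (otherwise the 2 with the smallest p), and the 5 rows most and 3 least like Thbs1; some of these results are not reported here. Alternatives changed the pseudocount, filter, scaling, trend, weights, groups fitted, block and libraries. P-values measure only the spread between these libraries.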

Additional observations from a re-analysis of the deposited data

Results flagged for a closer look

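In the 4 FOXP2-CPED1 clones, Thbs1 in clone 4, at 12.1 RPKM, stood apart from the other 3 clones at 28.2 to 29.8 RPKM. Its gap to the nearest clone was 0.906 of the group's whole range. Of 40 groups of 4 values examined this was 1, and chance gives about 1 in 20.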

How the results depend on the processing

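Thbs1 kept its direction under every alternative run, lower than control with both constructs and higher with FOXP2-CPED1 than with FOXP2. Leaving out 1 library at a time, the log2 difference of Thbs1 ranged from -2.93 to -2.52 for FOXP2-CPED1 minus control, from -4.30 to -3.64 for FOXP2 minus control and from 0.82 to 1.51 between the constructs. The same ranges for FOXP2-CPED1 minus control were 0.21 to 0.68 for Thbs2 and -0.47 to -0.18 for Cd47. They crossed 0 for Thbs2 in FOXP2 minus control (-0.0168 to 0.7941) and between the constructs (-0.4478 to 0.3717), and for Cd47 in FOXP2 minus control (-0.3553 to 5e-04) and between the constructs (-0.3311 to 0.0474). Counts past the threshold ranged from 0 to 57 for FOXP2-CPED1 minus control, from 2 to 64 for FOXP2 minus control and from 0 to 1 between the constructs, and within the 5 lists from 0 to 4 and from 0 to 2 against control. In these fits a lone control was assumed to vary like the other groups.

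With a pseudocount of 0.1 the counts were 28 for FOXP2-CPED1 and 37 for FOXP2 against control. With library quality weights they were 929 and 2095, with 4 between the constructs and 13 and 20 within the lists, and the sign turned for Thbs2 between the constructs (-0.0262). FOXP2 minus control gave 9 rows when only the groups compared were fitted, and 23 without the 3 libraries with mitochondrial rows at 0, where Thbs2 differed by -0.8084 between the constructs. The cause was not tested. Clone numbers did not pair the samples (correlations of deviations -0.04, -0.24, 0.28 and 0.17). With the clone number as a block, Thbs1 differed by 1.21 ± 0.21 between the constructs (SE from limma), and 0 rows passed. List medians without genes that needed the controls to pass the filter, an alternative chosen after seeing the data, kept their sign against control. The median of latent TGF-beta and its activators between the constructs was 0.0019 in place of -0.0405. The depth behind each RPKM value is unknown, so counting error could not be given.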
